A study of Mus musculus with 18 samples.

Results

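The Ly6 genes described here are Ly6a, Ly6c1, Ly6c2 and Ly6e, 4 of the 14011 genes in the normalized table that the authors deposited. They were chosen with their levels in all 6 groups of libraries in view, so their levels and differences are given as a description, with no test. All 4 passed the filter on low counts and are among the 12445 genes tested in the counts. The series profiled regulatory T cells (TR), the CD4+ T cells that carry the transcription factor Foxp3 and restrain immune responses, by RNA-seq of 500 sorted cells per library. The cells came from 3 littermate C57BL/6 mice (84, 86 and 87) whose cells all report Foxp3 by mRFP and Id3 by GFP, with no agent and no age named in the labels. Each mouse gave 3 populations from spleen and the same 3 from peripheral lymph node. Id3+ cTR (central TR) were sorted on surface markers that include a low level of CD44, and Id3+ eTR (effector TR) on the opposite gate, with a high level of CD44. For Id3- eTR, the effector TR without the Id3 reporter, the label states no such gate. This gives 6 groups of 3 libraries, and the same 3 mice stand in every group.

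Ly6 proteins are small, cysteine-rich surface proteins of the Ly6/uPAR family that are held in the outer leaflet of the membrane by a GPI anchor (a lipid tail) and have no part inside the cell. Ly6a, also called Sca-1, is known as a marker of blood stem cells and of activated lymphocytes, and type I and type II interferons induce it. Ly6c1 and Ly6c2 encode the Ly6C antigen, which is used to sort monocytes and to divide T cell subsets. Ly6e, also called TSA-1 or Sca-2, is a thymocyte antigen and an interferon-stimulated gene that blocks the entry of coronaviruses.

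Ly6c1 and Ly6c2 are close copies, and the start of their coding sequences is shown because it holds most of what separates them. The lines give coding bases 1 to 120 of each, 5′ to 3′, from the GENCODE M21 transcripts (GRCm38), with the 6 bases that differ in capitals. Both genes lie on the minus strand of chromosome 15, where the stretch spans 2 coding exons, at chr15:75048442-75048511 and chr15:75047420-75047469 for Ly6c1 and at chr15:75111598-75111667 and chr15:75110578-75110627 for Ly6c2.
Ly6c1: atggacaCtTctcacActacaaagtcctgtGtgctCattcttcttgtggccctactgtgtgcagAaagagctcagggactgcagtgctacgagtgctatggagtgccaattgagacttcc
Ly6c2: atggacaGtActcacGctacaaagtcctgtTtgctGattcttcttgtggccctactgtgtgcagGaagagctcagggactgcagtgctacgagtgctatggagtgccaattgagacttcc
Over the whole coding sequence of 393 bases, 384 bases (97.7%) are identical and 9 differ, and the longest identical run is 188 bases. Ly6a is 81.8% identical to Ly6c1 and 81.6% to Ly6c2 over 402 aligned columns, while Ly6e is 49.8% to 52.7% identical to the other members. Of all 50-base windows in the transcripts of Ly6c2, 31.2% also occur in a transcript of another gene, against 22.8% for Ly6c1, 14.4% for Ly6a and 0 for Ly6e. Counts of Ly6c1 and Ly6c2 are therefore uncertain where reads fall in such windows, above all for the rarer copy. The read length and the handling of reads with several matches are not given in the sources used here.

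Library totals ran from 1600782 to 3153325 counts. The lowest were those of spleen Id3+ cTR of mice 84 and 87, and the highest was that of spleen Id3+ eTR of mouse 84, whose counts differed from its partners by 22.2 and 22.3 times counting noise, where no other pair within a group passed 8.07 (mean chi-square per gene). Results that rest on these 3 libraries are given with and without them. Levels are in CPM (counts of a gene per megaread of the library) on totals scaled by TMM (a factor per library that assumes most genes unchanged), differences are log2 differences from an edgeR fit to all 18 libraries with their standard error (SE), and libraries of separate mice are the replicates. The sorting markers followed their labels: Id3 averaged 248 to 296 CPM in the 4 Id3+ groups and 58.5 and 71.4 CPM in Id3- eTR of spleen and lymph node, and Foxp3 averaged 259 to 290 CPM in every group. In RNA of sorted pools, fewer cells with a transcript and less of it per cell cannot be told apart.

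Ly6c1 stepped down from Id3+ cTR to Id3+ eTR to Id3- eTR in both organs. In spleen Id3+ cTR it stood at 326, 254 and 364 CPM in mice 84, 86 and 87, in Id3+ eTR at 100.2, 165 and 132 CPM, and in Id3- eTR at 35.3, 31.5 and 13.2 CPM. The 3 spleen groups did not overlap. In lymph node the same order gave 248, 209 and 226 CPM, then 93.6, 79.6 and 96.6 CPM, then 14.5, 27.4 and 22.1 CPM, again with no overlap. The whole step from Id3+ cTR to Id3- eTR was a log2 difference of -3.57 (SE 0.29), 11.9-fold lower, in spleen and of -3.41 (SE 0.30), 10.6-fold lower, in lymph node.

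On the log2 scale the later step held the larger share of that decrease. In CPM the earlier step was the larger. From Id3+ cTR through Id3+ eTR to Id3- eTR, group means were 315, 133 and 26.7 CPM in spleen and 228, 89.9 and 21.3 CPM in lymph node. From Id3+ cTR to Id3+ eTR, Ly6c1 differed by -1.25 (SE 0.26) on the log2 scale in spleen and by -1.34 (SE 0.26) in lymph node. From Id3+ eTR to Id3- eTR it differed by -2.32 (SE 0.29) and -2.07 (SE 0.29). Without the 3 spleen libraries named above, which leaves 1 library of spleen Id3+ cTR, the first spleen step was -0.77 and the whole step -3.26. Both kept their direction.

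Ly6c1 was also lower in lymph node than in spleen in all 3 mice for Id3+ cTR (log2 difference -0.47, SE 0.25) and for Id3+ eTR (-0.56, SE 0.26), with no overlap of the libraries in either. In Id3- eTR, where both organs were low, the libraries overlapped (-0.30, SE 0.31). The size of the Id3+ cTR difference depends on the 2 spleen libraries of low total. Without the 3 libraries, which leaves 1 library of spleen Id3+ cTR, it was -0.16. In mouse 86, whose spleen Id3+ cTR library was kept, Ly6c1 stood at 254 CPM in spleen and 209 CPM in lymph node. In unscaled counts the difference was 0.16. Unscaled counts carry the difference in library totals, so they cannot decide its direction. The group order for Ly6c1 was spleen Id3+ cTR (315 ± 56.2 CPM, mean ± SD, n = 3), lymph node Id3+ cTR (228 ± 19.5), spleen Id3+ eTR (133 ± 32.5), lymph node Id3+ eTR (89.9 ± 9.07), spleen Id3- eTR (26.7 ± 11.8) and lymph node Id3- eTR (21.3 ± 6.46). Only the last 2 overlapped as neighbours in that order.

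Ly6a did not follow the same path: it dipped in Id3+ eTR and stood higher again in Id3- eTR, in both organs. In spleen it was at 337, 244 and 313 CPM in Id3+ cTR of mice 84, 86 and 87, at 161, 214 and 191 CPM in Id3+ eTR, and at 315, 389 and 312 CPM in Id3- eTR. In lymph node the values were 264, 227 and 272 CPM, then 177, 189 and 183 CPM, then 348, 319 and 339 CPM. Id3+ eTR lay below the other populations in every mouse and both organs, with no overlap.

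The dip was a log2 difference of -0.66 (SE 0.13) in spleen and -0.48 (SE 0.13) in lymph node for Id3+ eTR over Id3+ cTR. Id3- eTR exceeded Id3+ eTR by 0.85 (SE 0.13) in spleen and 0.88 (SE 0.13) in lymph node, 1.80- and 1.83-fold. Id3- eTR also exceeded Id3+ cTR in all 3 mice in lymph node (0.40, SE 0.13), while in spleen the 2 populations overlapped (0.19, SE 0.13, higher in 1 of 3 mice). Without the 3 spleen libraries the spleen dip was -0.27 (SE 0.15), and the spleen difference of Id3- eTR over Id3+ cTR was 0.47. Ly6a levels of spleen and lymph node overlapped in each of the 3 populations.

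**Figure D1:**
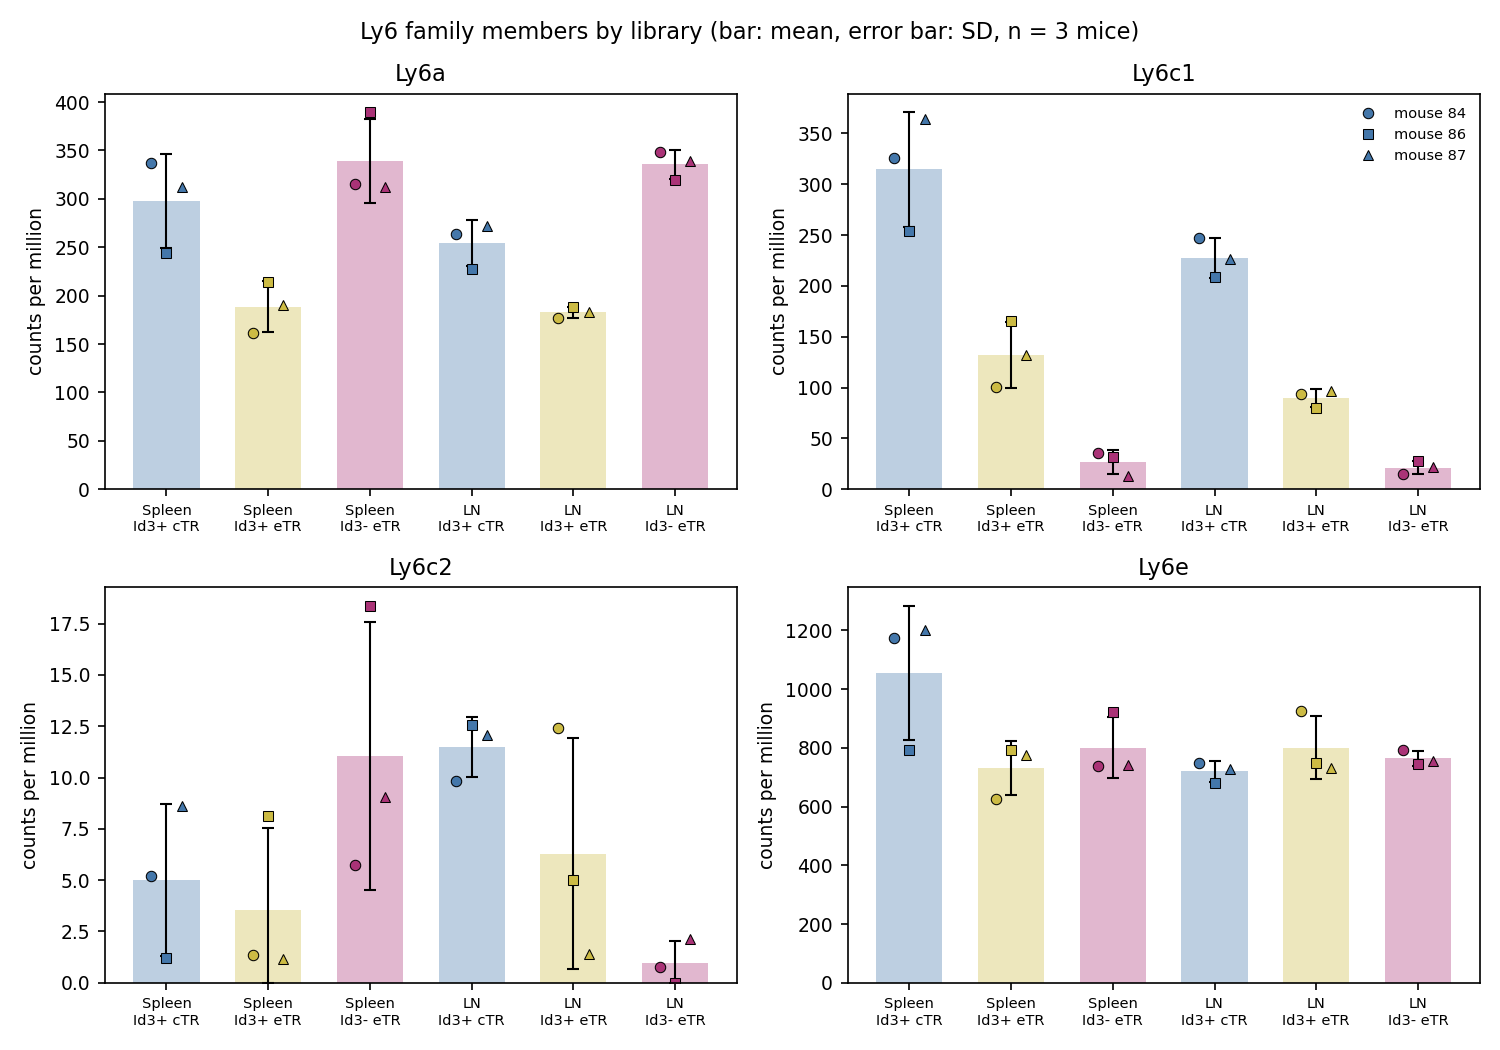
CPM of Ly6a, Ly6c1, Ly6c2 and Ly6e in each library, with 1 panel per gene on its own scale. Bars are group means, error bars the SD over 3 mice (drawn no lower than 0), and circles, squares and triangles the libraries of mice 84, 86 and 87. Ly6c1 steps down across the 3 populations in both organs, Ly6a is lowest in Id3+ eTR, Ly6c2 stays at or under 18.4 CPM, and spleen Id3+ cTR of mice 84 and 87 stand above all other libraries for Ly6e.

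Ly6c2, the copy of Ly6c1 that is best known from monocytes, was near the limit of what these libraries resolve, with 0 to 39 counts in each. In lymph node it went with its copy: 9.84, 12.6 and 12.1 CPM in Id3+ cTR, 12.4, 5.02 and 1.38 CPM in Id3+ eTR, and 0.786, 0 and 2.14 CPM in Id3- eTR. The count of 0, in mouse 86, allows a level of up to 1.10 CPM by counting error. Id3- eTR lay below Id3+ cTR in all 3 mice without overlap (log2 difference -3.49, SE 1.07).

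In spleen Ly6c2 averaged highest in Id3- eTR. It was at 5.20, 1.20 and 8.63 CPM in Id3+ cTR, 1.34, 8.14 and 1.17 CPM in Id3+ eTR, and 5.76, 18.4 and 9.04 CPM in Id3- eTR. Id3- eTR was higher than Id3+ cTR within each of the 3 mice, but the groups overlapped (1.16, SE 0.95). The spleen difference was 3.15 (SE 1.62) without the 3 libraries, and both values rest on 3 to 39 counts per library. Neighbours in the order of the 6 group means of Ly6c2 overlapped in every case.

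Ly6c2 therefore made up a different share of the pair in 1 group. Of the counts of Ly6c1 and Ly6c2 together, Ly6c2 held 14.0%, 36.8% and 40.6% in spleen Id3- eTR of the 3 mice, and between 0 and 11.7% in the other 15 libraries. Since the copies share long identical stretches, reads of one that were counted for the other would weigh most on Ly6c2, and their number was not tested. Summed, which does not depend on how shared reads were split between the copies, the pair differed by -3.09 (SE 0.27) in spleen and -3.41 (SE 0.28) in lymph node between Id3- eTR and Id3+ cTR. Any reads left out by the counting stay out of this sum, and it can still depend on reads shared with Ly6a.

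Other cells that carry Ly6C were looked for through their markers. The neutrophil genes S100a8 and S100a9 and the neutrophil antigen Ly6g had no count in any library. The 13 listed myeloid and dendritic genes, of which 5 were tested, summed to 136 to 260, 145 to 241 and 244 to 291 CPM in the Id3+ cTR, Id3+ eTR and Id3- eTR libraries of spleen, and to 140 to 160, 212 to 449 and 321 to 357 CPM in those of lymph node. In Id3- eTR over Id3+ cTR, 2 of the 5 tested genes were called higher in spleen (Tyrobp and Fcer1g, median of the 5 log2 differences 1.53), the direction of the Ly6c2 mean there. In lymph node 4 were called higher (also Cst3 and Spi1, median 3.36), opposite to Ly6c2. Among all tested genes 12.3% were called in spleen and 12.9% in lymph node. Tyrobp, a signalling adaptor of myeloid and NK cells, averaged 4.23 CPM in spleen Id3+ cTR and 19.4 CPM in spleen Id3- eTR. Cst3, a gene of many cell types, held most of the sum in spleen. Ly6c1 is also made by blood vessel cells. Of the 10 genes on the vessel and stromal list, 5 had no count in any library (Cdh5, Tek, Vwf, Emcn and Pdpn), and Kdr, Egfl7, Esam and Col1a1 reached at most 2.49 CPM in any library. The other gene, the only one tested, was Pecam1, which T cells also express and which went with Ly6c1: its means were 312, 179.7 and 88.4 CPM in spleen, from Id3+ cTR through Id3+ eTR to Id3- eTR, and 255, 135 and 69.0 CPM in lymph node. The part of vessel cell or myeloid RNA in the levels of Ly6c1 and Ly6c2 was not tested further. The 8 listed CD8 and NK cell genes were summed per library. Spleen sums were 88.3 to 177 CPM for Id3+ cTR, 131 to 170 for Id3+ eTR and 336 to 378 for Id3- eTR. Lymph node sums were 88.6 to 136, 186 to 413 and 239 to 324 CPM, by the same order. Of the 6 genes tested, only Nkg7 and Ccl5 were called higher for Id3- eTR over Id3+ cTR, whichever the organ. Ccl5 alone averaged 6.59 CPM for spleen Id3+ cTR and 173 CPM for spleen Id3- eTR. The median of the 6 log2 differences was 0.51 (spleen) and 1.63 (lymph node). Against Id3+ eTR those medians were -0.89 and -0.34. CD8 or NK cell content was not tested further.

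Ly6e had the highest counts of the 4 genes, and its counts hardly varied. It was counted 1805, 1982 and 1945 times in spleen Id3+ cTR of mice 84, 86 and 87, 1863, 1944 and 1997 times in spleen Id3+ eTR, and 2054, 1956 and 2135 times in spleen Id3- eTR. In lymph node the counts were 1978, 2060 and 2050, then 1936, 1933 and 2107, then 2019, 2035 and 2121. The library with the lowest total thus held 1805 counts of Ly6e and the library with the highest total, 1.97 times larger, held 1863.

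Scaled to the library total, those near-constant counts became a pattern that follows the totals. Ly6e CPM were 1174, 792 and 1199 in spleen Id3+ cTR, 624, 791 and 776 in spleen Id3+ eTR and 739, 921 and 742 in spleen Id3- eTR. In lymph node they were 749, 681 and 728, then 925, 747 and 729, then 794, 743 and 756. The 2 highest values belong to the 2 libraries of lowest total and the lowest value to the library of highest total, and over the 18 libraries the Pearson correlation of log2 CPM with log2 total was -0.98 (Spearman -0.91), against -0.30 for Ly6a, -0.40 for Ly6c1 and -0.30 for Ly6c2. These correlations describe 18 libraries that share mice, and CPM contains the total as its divisor.

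The spread of Ly6e counts over the 18 libraries was 4.36% of their mean (SD over mean), while the totals spread by 16.4%. Only 5 of the 12445 tested genes spread less, and Ly6e was 33rd by mean count. The genes whose log2 CPM followed that of Ly6e most closely over the 18 libraries, among 8847 whose log2 CPM averaged 3 or more, were B2m, the light chain of MHC class I (r = 0.997), mt-Co1 (0.986), Actb (0.984), Tmsb4x (0.982) and mt-Cytb (0.980). B2m was counted 1250 to 1472 times per library and Actb 1627 to 2027 times. Foxp3, which had fewer counts per exon base, went with the total: 473 counts in the library of lowest total and 1117 in that of highest total.

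Per base of exon, Ly6e had 0.811 counts and Ly6a 0.663, more than 99.6% and 99.2% of the 12028 tested genes with an exon length, while Ly6c1 had 0.207 and Ly6c2 0.018. No such gene longer than 200 bases passed 1.85 counts per base in any library. Among the 232 genes over 0.5 counts per base, the median slope of log2 count on log2 total was 0.51, and among the 9007 genes under 0.1 counts per base it was 1.19, where counts in proportion to the total give a slope of 1. The slope was 0.15 for Ly6e and 0.61 for Ly6a. Why dense genes gained fewer counts in larger libraries was not tested. Picard is among the tools in the submitters' processing notes, with no step named for it.

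Differences of Ly6e between groups are therefore values on a scale that its counts did not follow. The log2 difference of spleen Id3+ eTR over Id3+ cTR was -0.53 (SE 0.14) after scaling, 0.02 in unscaled counts and -0.02 without the 3 libraries. For spleen Id3- eTR over Id3+ cTR the same 3 values were -0.40 (SE 0.14), 0.10 and 0.01. In lymph node the population differences of Ly6e lay between -0.07 and 0.15 (SE 0.14). Neighbouring groups overlapped throughout the order of Ly6e levels, from spleen Id3+ cTR (1055 ± 228 CPM) to lymph node Id3+ cTR (719 ± 34.5).

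**Figure D2:**
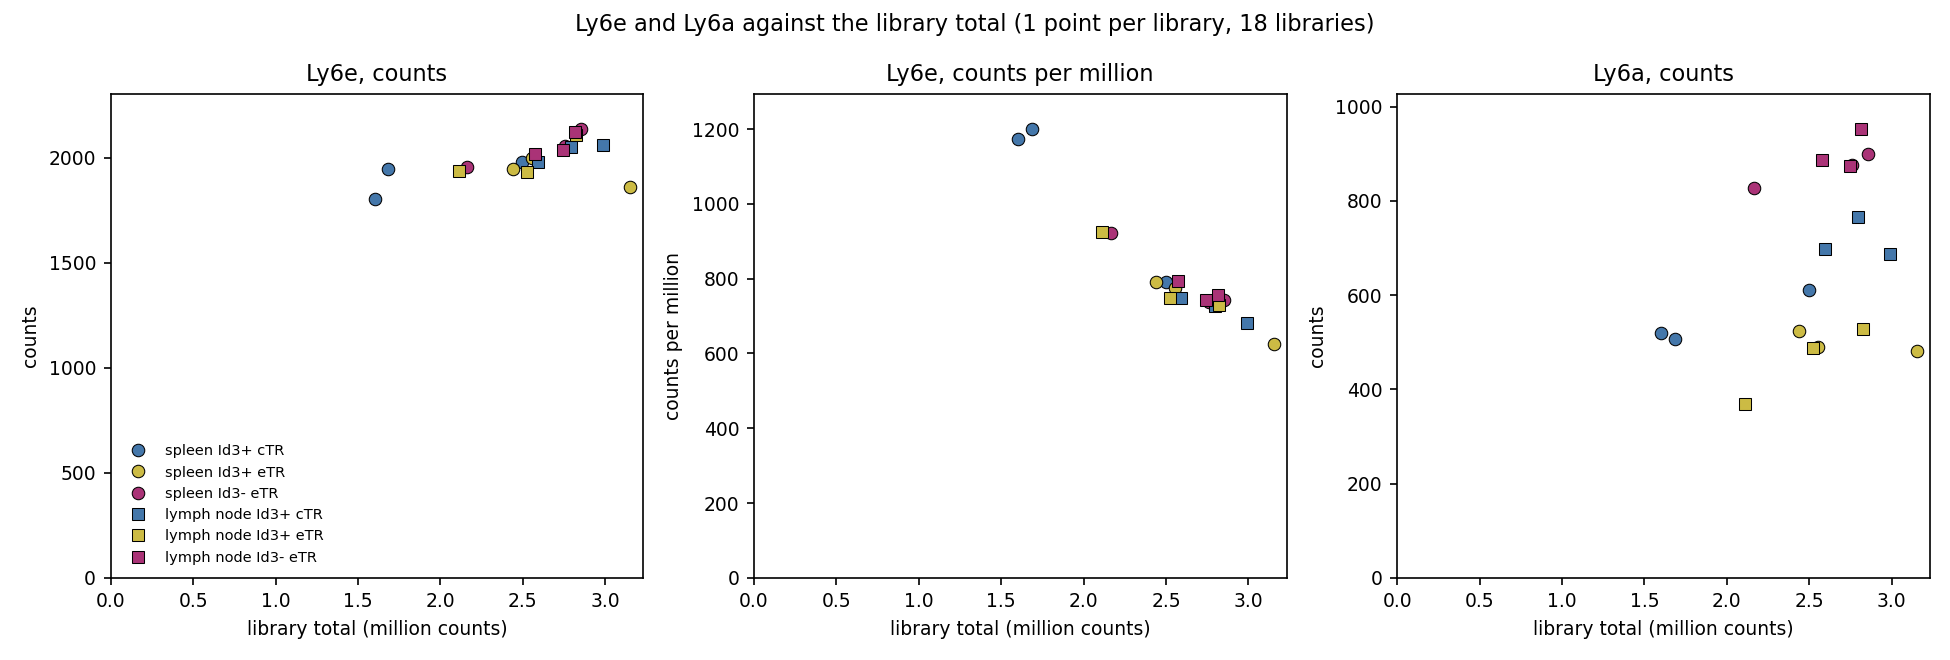
Counts of Ly6e, CPM of Ly6e and counts of Ly6a against the library total, with 1 point per library (circles spleen, squares lymph node, colour by population). Ly6e counts stay between 1805 and 2135 across the range of totals, its CPM fall as the total rises, and Ly6a counts separate Id3- eTR (827 to 952) from Id3+ eTR (370 to 529).

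Ly6a kept its main difference on the count scale. Its counts were 827 to 952 in the 6 libraries of Id3- eTR and 370 to 529 in the 6 of Id3+ eTR, and the unscaled log2 differences of 0.80 in spleen and 0.97 in lymph node stand beside the scaled 0.85 and 0.88. The dip of Id3+ eTR below Id3+ cTR was -0.63 unscaled in lymph node and only -0.13 in spleen, where the Id3+ cTR libraries had the low totals. Scaling by the genes under 0.2 counts per exon base alone, chosen after seeing these data, moved no difference of Ly6a, Ly6c1, Ly6c2 or Ly6e by more than 0.06. That scaling changes the factor of each library and leaves the counts of a gene as they are. It therefore cannot show whether the counts of dense genes such as Ly6a and Ly6e followed their levels.

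Compared per kilobase of exon, Ly6e and Ly6a were the most abundant of the 4 in all groups. Ly6e averaged 292 to 429 CPM per kilobase over the 6 groups and Ly6a 182 to 338. Ly6c1 reached 203 ± 36.3 CPM per kilobase (SD, n = 3) in spleen Id3+ cTR and 13.8 ± 4.18 in lymph node Id3- eTR. Ly6c2 averaged 1.12 to 13.2. In spleen Id3- eTR the means of Ly6c1 (17.2 ± 7.63) and Ly6c2 (12.7 ± 7.54) differed by less than their SD. For Ly6e and Ly6a these levels carry the limit on dense genes given above.

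Counted over members, the 3 libraries of Id3- eTR did not overlap those of Id3+ cTR for 1 of 4 genes in spleen and 3 of 4 in lymph node, where 30.5% and 33.9% of all tested genes did not overlap. For Id3+ eTR over Id3+ cTR it was 3 of 4 in spleen (all tested genes 19.8%), where the closest Ly6e libraries, both of mouse 86, differed only at 791 against 792 CPM, and 2 of 4 in lymph node (24.8%). For Id3- eTR over Id3+ eTR it was 2 of 4 in both, Ly6a higher and Ly6c1 lower (18.5% in spleen and 22.0% in lymph node). Between the organs it was 3 of 4 in Id3+ cTR (14.6%), 1 of 4 in Id3+ eTR (13.8%) and 1 of 4 in Id3- eTR (14.9%). The members were chosen on these groups, and nothing is read from the counts.

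**Figure D3:**
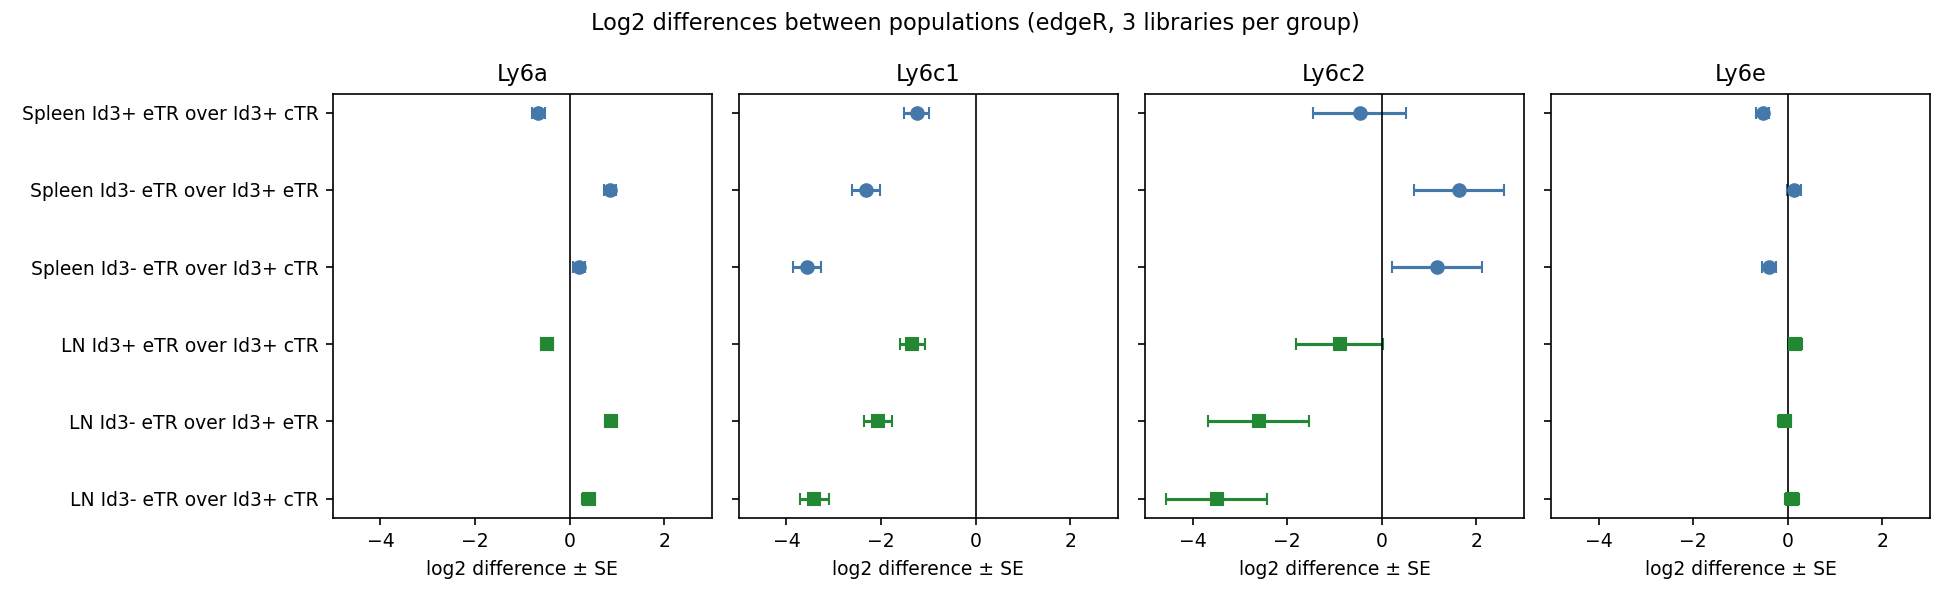
Log2 differences between populations from edgeR, with their SE as bars, for the 4 genes in spleen (circles) and lymph node (squares), 3 libraries per group. Ly6c1 lies left of 0 in all 6 comparisons, Ly6a changes side between the first and the second step in both organs, and Ly6c2 lies on opposite sides of 0 in spleen and lymph node for the comparisons with Id3- eTR.

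The members did not vary together. The Pearson correlation of their log2 CPM over the 18 libraries ran from -0.38 (Ly6a with Ly6c1) to 0.40 (Ly6a with Ly6e). Genes close to Ly6c1 were Dusp10, a MAP kinase phosphatase (r = 0.978), Gsto1 (0.970), Treml2 (0.963) and Gpr83 (0.958). The closest to Ly6a were Cmtm7 (0.861), Cisd1 (0.851), Hsd11b1, which activates glucocorticoids (0.848), Neb (0.844) and Tsg101 (0.839). Of these, Neb had the Ly6a shape with the widest range, at 148, 78.4 and 683 CPM in spleen and 146, 54.0 and 1259 CPM in lymph node. For Ly6c2 the closest genes reached 0.669 to 0.708 (Mdm4, Map2k6, Cep128, Fchsd2 and Rsl1d1). These values share libraries and mice and are given as a description.

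The rest of the Ly6/uPAR family was sparse. Of 40 other family genes listed, 36 were in the count table, 19 had no count in any library and 11 more had at most 9 counts in any library and were not tested. Among the 31 annotated genes of the chromosome 15 cluster and its flanks, 6 were tested: the 4 members, Ly6k and Ly6m. In Id3- eTR over Id3+ cTR, 2 of the 6 family genes tested were called lower in spleen and none higher, and 2 were lower and 1 higher in lymph node (edgeR, Benjamini-Hochberg adjusted p under 0.05). Among all tested genes 12.3% and 12.9% were called. The median log2 difference of the 6 genes was -1.99 in spleen and -2.46 in lymph node, against 0.00 over all tested genes. These medians include genes with no count in a group, whose log2 values are poorly fixed. They were Plaur in spleen (-7.01, SE 1.87), and Lypd6b (-7.01, SE 2.20) and Ly6g5b (8.35, SE 2.08) in lymph node. The medians are therefore not read as a fall of the family.

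Ly6k, a germ cell antigen whose gene lies in the same cluster, was lower in Id3- eTR in both organs. Across Id3+ cTR, Id3+ eTR and Id3- eTR its means were 51.6 ± 23.1, 28.8 ± 11.8 and 16.3 ± 8.17 CPM in spleen and 55.1 ± 7.43, 34.0 ± 4.45 and 18.8 ± 10.5 in lymph node (SD, n = 3). The fall from Id3+ cTR to Id3- eTR was -1.66 (SE 0.47, edgeR adjusted p = 0.0287) in spleen and -1.54 (SE 0.46, edgeR adjusted p = 0.0372) in lymph node, in 3 of 3 mice in each. Leaving out single libraries ended both calls: the adjusted p reached 0.132 in spleen without Id3+ cTR of mouse 87, 0.0818 without the 3 libraries that stand apart, and 0.147 in lymph node without Id3- eTR of mouse 84.

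Ly6d, a marker of early B cells, fell in lymph node from 24.6, 33.1 and 9.23 CPM in Id3+ cTR to 0, 0 and 1.43 CPM in Id3- eTR (log2 difference -5.37, SE 1.24, edgeR adjusted p = 0.00795). The adjusted p was 0.0757 with limma-voom and at most 0.0400 with any 1 library left out. The B cell gene Cd79a averaged 20.1 CPM in lymph node Id3+ cTR and 5.56 in Id3- eTR, which was not called there, and the 8 listed B cell genes summed to 770 to 894 CPM in Id3+ cTR and 1142 to 1254 in Id3- eTR, mostly as Ighm and Cd74. Of the 6 B cell genes tested, these 2 were called higher and 0 lower in lymph node Id3- eTR over Id3+ cTR. The median of the 6 log2 differences was -0.72, the direction of Ly6d. In spleen 0 were called higher and 1 lower, Cd79a, with a median of -0.55. Among all tested genes 12.9% were called in lymph node and 12.3% in spleen. The part of B cell RNA in the Ly6d difference was not tested. In spleen, Ly6d was at 7.15, 38.8 and 55.5 CPM in Id3+ cTR and at 4.68, 20.7 and 2.78 CPM in Id3- eTR, which did not pass the test (edgeR adjusted p = 0.224).

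The remaining calls rest on groups with no count. Plaur, the receptor of the protease urokinase, had 9, 4 and 19 counts in spleen Id3+ cTR and 0 in all 3 libraries of Id3- eTR, at least 14.7-fold lower when 3 counts are allowed over the whole group (edgeR adjusted p = 0.0233). Ly6g5b had no count in the 3 libraries of lymph node Id3+ cTR and 55, 29 and 45 counts in Id3- eTR, at least 45.1-fold higher (edgeR adjusted p = 0.0148). The Plaur call ended without spleen Id3+ cTR of mouse 87 (adjusted p = 0.0784) or without any 1 of the Id3- eTR libraries (0.0572 to 0.0753), and was 0.303 without the 3 libraries that stand apart, and that of Ly6g5b without lymph node Id3+ cTR of mouse 86 or 87 (0.0509 and 0.0503). Lypd6b (0 to 24 counts) and Ly6m (0 to 29 counts) were called in no comparison of populations within an organ, although the adjusted p of Lypd6b in lymph node Id3- eTR over Id3+ cTR was 0.0554 and it was called in 5 of 14 alternatives. One of these is the fit with mouse as a replicate block, which called 4 of the 6 genes there. Between the other pairs of populations edgeR called 0 of the 6 genes (all tested genes 4.32% for Id3+ eTR over Id3+ cTR and 3.28% for Id3- eTR over Id3+ eTR in spleen, 5.66% and 2.62% in lymph node), with 0 to 2 at an unadjusted p under 0.05, DESeq2 called at most 1 and limma-voom at most 1.

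**Figure D4:**
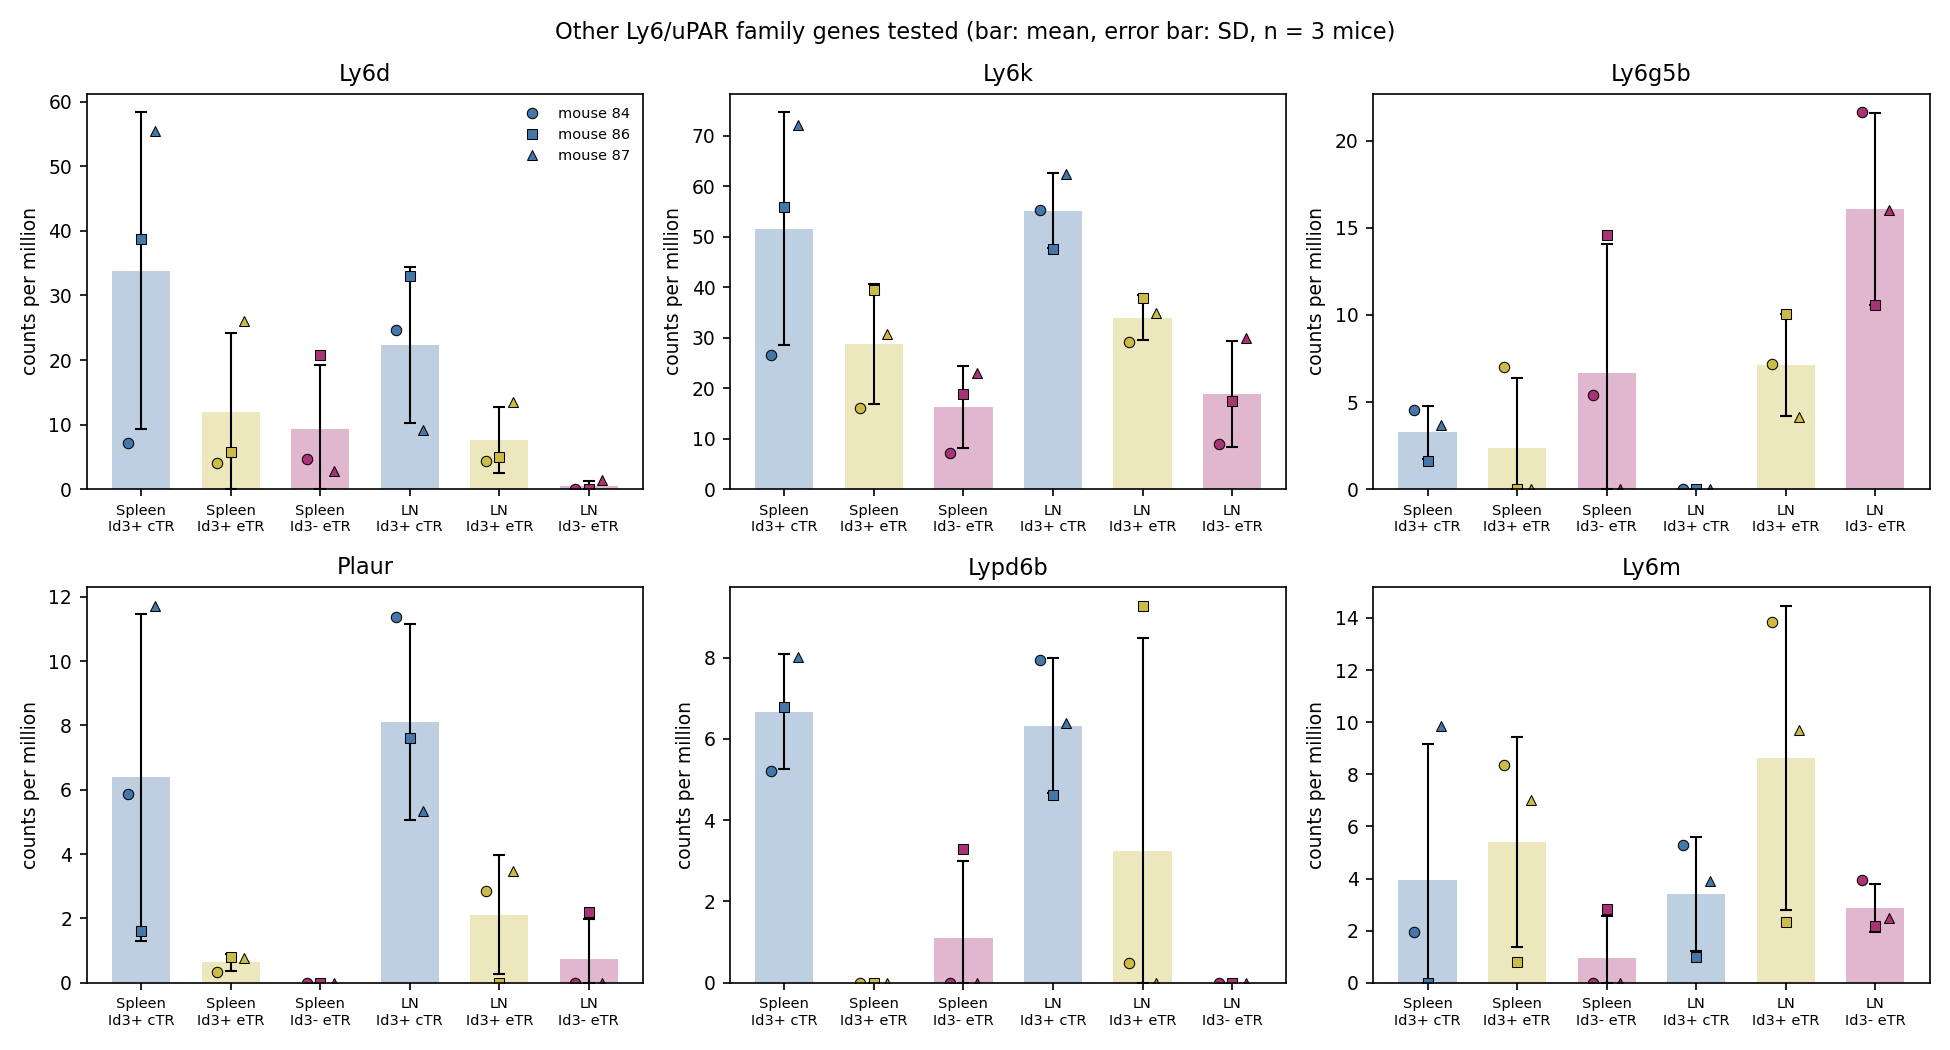
CPM of the 6 other Ly6/uPAR family genes that were tested, with 1 panel per gene on its own scale. Bars are group means, error bars the SD over 3 mice (drawn no lower than 0), and symbols the single libraries. Ly6k steps down with the population in both organs, Plaur is at 0 in spleen Id3- eTR, and Ly6g5b is at 0 in lymph node Id3+ cTR.

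The genes that build and attach GPI anchors were read against the 12.3% of all tested genes called in spleen and 12.9% in lymph node. Of 28 tested genes of GPI anchor synthesis and transfer, 1 was called in Id3- eTR over Id3+ cTR in spleen, Pigk of the GPI transamidase, which was higher (0.66, SE 0.15, edgeR adjusted p = 0.00683, and 0.222 without the 3 libraries). In lymph node 0 were called by edgeR, 2 had an unadjusted p under 0.05, and DESeq2 and limma-voom called 0. The list's medians were 0.08 and 0.06. Of 12 other GPI-anchored lymphocyte proteins tested, Nt5e (CD73, which makes adenosine) was higher by 1.35 (SE 0.18, adjusted p = 5.75e-05) in spleen and 1.91 (SE 0.18, adjusted p = 1.16e-06) in lymph node, and Cd55, a brake on complement, was lower by -0.72 (SE 0.18, adjusted p = 0.0140) and -1.15 (SE 0.18, adjusted p = 3.32e-04). The Cd55 call in spleen ended without 1 of 3 libraries (Id3- eTR of mouse 84 or 87, or Id3+ cTR of mouse 87; adjusted p 0.0729 to 0.0852), and without the 3 that stand apart it was 0.251. Art2b, an ADP-ribosyltransferase, was the third call in lymph node, lower by -0.74 (SE 0.22, adjusted p = 0.0379), and its adjusted p reached 0.164 without Id3- eTR of mouse 84 and was 0.0570 without the 3 libraries that stand apart.

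Genes of the interferon response, to which Ly6a and Ly6e belong, were listed without them. Of the 39, 3 were called higher and 3 lower in Id3- eTR over Id3+ cTR in spleen, and 2 higher and 2 lower in lymph node, with medians of -0.01 and -0.02. These counts are near the share of all tested genes called (12.3% and 12.9%), so the genes below are single genes and not a result about the list. Usp18, which restrains the type I receptor, was lower by -1.72 (SE 0.34, adjusted p = 0.00220) in spleen and -1.76 (SE 0.33, adjusted p = 0.00166) in lymph node, while Oas1a was higher by 1.25 (SE 0.29, adjusted p = 0.00839) and 1.05 (SE 0.29, adjusted p = 0.0214). Single libraries ended the Oas1a calls, with an adjusted p of up to 0.0509 in spleen and 0.0885 in lymph node. With the 3 outlying spleen libraries removed the adjusted p in spleen was 0.108 for Oas1a, 0.174 for Slfn5, 0.203 for Irf9 and 0.0958 for Ifngr2. Oas2 was lower in spleen, with a mean of 0.579 CPM in Id3- eTR against 25.7 in Id3+ cTR (adjusted p = 0.0100, above the threshold without Id3- eTR of mouse 84 and 0.103 with limma-voom), as was Slfn5 (27.4 against 70.8, adjusted p = 0.0113, up to 0.0601 with single libraries left out). Of 10 receptor and signalling genes, 1 was called higher and 3 lower in spleen, and 1 higher and 2 lower in lymph node. These counts stand beside the 12.3% and 12.9% of all tested genes. The gene called higher in spleen was Ifngr1. Ifngr2 was lower by -1.45 in both organs (SE 0.31 and 0.30, adjusted p = 0.00414 and 0.00365). Jak1 was lower by -0.53 in spleen (SE 0.07, adjusted p = 4.94e-05) and -0.23 in lymph node (SE 0.07, adjusted p = 0.0392, 0.0609 with mouse as a replicate block and up to 0.134 with single libraries left out). Jak2 was higher by 0.89 in lymph node (SE 0.16, adjusted p = 0.00120), and Irf9 was lower by -0.38 in spleen (SE 0.09, adjusted p = 0.00906, 0.0590 without Id3+ cTR of mouse 87).

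The list of resting T cell genes moved in the direction of Ly6c1 and that of effector TR genes against it. Among all tested genes 12.3% were called in Id3- eTR over Id3+ cTR in spleen and 12.9% in lymph node. Of 14 genes of resting, recirculating T cells, 13 were called lower in Id3- eTR over Id3+ cTR in spleen and 13 lower in lymph node, where Il7r was higher, with medians of -2.45 and -2.11. Among them the growth factor binding protein Igfbp4 was lower, with log2 differences of -6.32 (SE 0.51, adjusted p = 3.29e-07) in spleen and -6.96 (SE 0.51, adjusted p = 1.04e-07) in lymph node, and Bach2, a repressor of effector genes, was lower at -2.46 (SE 0.18, adjusted p = 9.12e-08) and -3.16 (SE 0.18, adjusted p = 6.79e-09). Of 14 effector TR genes, 14 were called higher in both organs, among them Tigit by 6.23 (SE 0.34, adjusted p = 2.21e-09) and 7.03 (SE 0.34, adjusted p = 5.60e-10). These lists were chosen with earlier results of these libraries known and are no independent support for their direction.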

How the data were processed

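Gene counts per library, deposited by the authors, were the main input; the deposited normalized table holds a signal that equals each count times 1 factor per library within 0.1% for 99.986% of values. Tools listed without roles, per the submitters' processing notes, are SAMtools, Picard, FastQC, HTSeq 0.4.1, TopHat and Bowtie. No source used here gives the build. Of 37991 genes, 5072 have no symbol (0.891% of counts), and 12445 passed edgeR's filter (minimum count 10).

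All 18 libraries entered 1 robust quasi-likelihood fit with 6 group terms (edgeR 4.0.16, R 4.3.3, TMM scaling, 12 residual degrees of freedom), with Benjamini-Hochberg adjustment over all tested genes and calls at 0.05. The median SE of a log2 difference was 0.312. Tested on simulated data for spleen Id3- eTR over Id3+ cTR (12445 genes, 200 changed), it recovered 31% of 2-fold and 64% of 4-fold changes, with 4 false calls among 99. In the data 1526 genes were called in this comparison. The adjustment is stricter where fewer genes change, so these rates do not give the recovery in the data. Alternatives used limma 3.58.1, DESeq2 1.42.0, other scalings and filters, left-out libraries and a mouse block. Tables were made with Python 3.11.15, pandas 2.3.3 and scipy 1.17.1. Limits for a count of 0 cover counting error only.

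The members and gene lists were chosen with earlier results of these data known. Named genes were the members, all tested family genes, the 5 genes with the highest correlation to each member, up to 4 called genes per pathway list with the largest mean difference, and sort markers. Some items under this rule are not reported here. The same mouse number is the same animal, per the labels; deviations of same-mouse libraries from their group means correlated weakly (mean r 0.02 over 45 pairs, -0.01 between different mice).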

Additional observations from a re-analysis of the deposited data

Results flagged for a closer look

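The Ly6c2 estimates took opposite signs in the 2 organs. The log2 difference of Id3- eTR over Id3+ cTR was 1.16 (SE 0.95) in spleen and -3.49 (SE 1.07) in lymph node. The spleen groups overlapped. There, Id3+ cTR and Id3- eTR stood at 5.20 and 5.76 CPM in mouse 84, 8.63 and 9.04 in mouse 87, and 1.20 and 18.4 in mouse 86. Seen by organ, lymph node over spleen was -3.42 in Id3- eTR and 1.22 in Id3+ cTR. Ly6e differed by -0.53 between Id3+ eTR and Id3+ cTR in spleen and by 0.15 in lymph node. The spleen value is carried by mice 84 and 87, since mouse 86 had 791 and 792 CPM, and in lymph node mouse 87 had 729 and 728 CPM. These differences between effects were not tested, since the genes were chosen with these values in view. Ly6c2 rests on 0 to 39 counts per library, and the Ly6e value in spleen was 0.02 in unscaled counts.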

How the results depend on the processing

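Among the alternatives, 138 of 144 values of Ly6a, 146 of 153 of Ly6c1, 138 of 152 of Ly6c2 and 138 of 144 of Ly6e kept their direction and moved by less than the replicate spread. That spread differs by gene, so these shares are not comparable between genes. The pooled replicate SD of log2 CPM was 0.16 for Ly6a, 0.41 for Ly6c1, 1.01 for Ly6c2 and 0.19 for Ly6e. Values that reversed numbered 2 for Ly6a, 1 for Ly6c1, 3 for Ly6c2 and 4 for Ly6e. Without the 3 spleen libraries that stand apart, Ly6a was 0.47 in spleen Id3- eTR over Id3+ cTR, -0.27 in Id3+ eTR over Id3+ cTR and 0.06 in lymph node over spleen Id3+ cTR. In the same order Ly6c2 was 3.15, 1.91 and 3.21 and Ly6e 0.01, -0.02 and -0.14, and Ly6c1 was -0.77 in Id3+ eTR over Id3+ cTR. Calls in spleen Id3- eTR over Id3+ cTR were then 0 for the other Ly6/uPAR genes, 0 for GPI synthesis, 1 for GPI-anchored proteins, 1 for interferon receptors (5 in lymph node) and 3 for interferon-stimulated genes. In unscaled counts, chosen after seeing the data as was the scaling without dense genes, the 3 values were 0.67, -0.13 and 0.39 for Ly6a, -3.09, -0.72 and 0.16 for Ly6c1, and 0.10, 0.02 and 0.09 for Ly6e. Summing Ly6c1 and Ly6c2 gave -3.09 for spleen Id3- eTR over Id3+ cTR, -1.86 over Id3+ eTR, and lymph node over spleen of -0.74 (Id3- eTR), -0.50 (Id3+ eTR) and -0.42 (Id3+ cTR). Ly6c1 holds most of the sum and so sets its direction, which says nothing of Ly6c2 alone. With only the compared groups, 0 other Ly6/uPAR genes and 7 interferon receptors were called in spleen, and limma-voom called 5 GPI-anchored genes in lymph node. With 1 library left out, Ly6c2 ran from -1.90 to 0.20 in spleen Id3+ eTR over Id3+ cTR, 1.06 to 3.08 in spleen Id3- eTR over Id3+ eTR, -4.73 to -2.91 in lymph node Id3- eTR over Id3+ cTR, -3.85 to -1.65 over Id3+ eTR, and, lymph node over spleen, -4.68 to -2.85 for Id3- eTR and -0.14 to 2.25 for Id3+ eTR. Calls ran from 0 to 2 (spleen) and 1 to 3 (lymph node) for other Ly6/uPAR genes, 0 to 1 for GPI synthesis in lymph node, 1 to 3 for GPI-anchored proteins in spleen and 2 to 4 for interferon-stimulated genes in lymph node. For resting genes in spleen Id3+ eTR over Id3+ cTR they ran from 5 to 9, with 4 in only the compared groups and 1 without the 3 libraries. With mouse as a replicate block, calls in spleen and lymph node were 2 and 4 for other Ly6/uPAR genes and 5 and 2 for interferon receptors, and Ly6a in spleen Id3+ eTR over Id3+ cTR was -0.66. Apart from the scaling, library removal and summing named above, the cause of these moves was not tested. Depth limits Ly6c2, Plaur, Lypd6b and Ly6g5b, which have few counts per library.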
